A study of Mus musculus with 16 samples.

Results

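The left and the right ventricle of normal fetal mouse hearts were compared with each other, embryo by embryo. The comparison used 10 of the 16 RNA sequencing libraries of a study of hypoplastic left heart syndrome (HLHS), a malformation in which the left ventricle stays small. These were all libraries whose labels name a control heart, with 5 of the left ventricle (LV) and 5 of the right ventricle (RV), 1 of each from every embryo. All embryos were of the C57BL/6 background and carried either the phenotype HLHS or the phenotype control, and the labels give no genotype for either. Control embryo 1 was taken on E13.5 (E for embryonic day), embryos 2 and 3 on E14.5 and embryos 4 and 5 on E17.5. Each stage was 1 litter, so stage and litter cannot be told apart. The other 6 libraries, the LV and RV of 3 HLHS embryos, 1 from each litter, were used only to see whether differences between the sides of control hearts were also present there. Nothing in the labels says whether other tissue, such as atrium, valve or the roots of the great vessels, was trimmed from the ventricles.

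The ventricles of the mouse heart come from different progenitors. The LV arises mostly from the first heart field, whose cells use the transcription factors TBX5 and HAND1, and the RV and outflow tract arise from the second heart field, which depends on ISL1 and HAND2. In the fetus both ventricles pump side by side into the body circulation. The comparison asks which genes set the normal chambers apart at these stages.

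Libraries held between 17081273 and 28648645 counted reads, and no gene took more than 1.37% of a library. Levels are given as CPM, read counts scaled to a common library size by the trimmed mean of M values. CPM are not divided by transcript length, so levels are compared between samples of 1 gene and not between genes. Every LV deviated from its group most like the RV of its own embryo, in 5 of 5 embryos. Xist, the RNA of the inactive X chromosome, and the Y-linked Ddx3y gave the same sex for both ventricles of every embryo, with 1 reservation. The RV of embryo 4 had 35.1 CPM of Xist beside 77.7 CPM of Ddx3y, whereas its LV had 1.24 CPM of Xist and 90.1 CPM of Ddx3y. Because a library is bulk tissue, more cells of a type and more RNA per cell cannot be told apart.

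Of 15356 genes with enough counts, 943 differed between the ventricles (6.14% of those tested). The test was edgeR's quasi-likelihood test, blocked by embryo, and a gene was called at a Benjamini-Hochberg adjusted p under 0.05. In simulated counts, where 200 genes were changed 2-fold and the others not at all, 10.7% of the genes called this way were unchanged ones. The share of unchanged genes among the 943 was not measured. In the LV 323 genes were higher (2.10%), and in the RV 620 genes were higher (4.04%). Most differences were small on the LV side, where the median log2 fold change of the called genes was 0.32 and 28 genes reached 2-fold. On the RV side the median was −0.58 and 167 genes reached 2-fold. A fold of at least 4 was reached by 6 genes higher in the LV and 31 higher in the RV. The direction was the same in 5 of 5 embryos for 912 of the 943 genes (96.7%). The ranges of the 5 LV and 5 RV libraries did not overlap for 208 of the called genes, and over all genes tested such a separation occurred in 270 (1.76%). Without the ventricles of embryo 4, 855 genes passed, 318 higher in the LV and 537 higher in the RV. Without embryo 3 the counts were 108 and 351, without embryo 5 they were 177 and 366, without embryo 2 they were 179 and 400, and without embryo 1 they were 211 and 535.

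**Figure D1:**
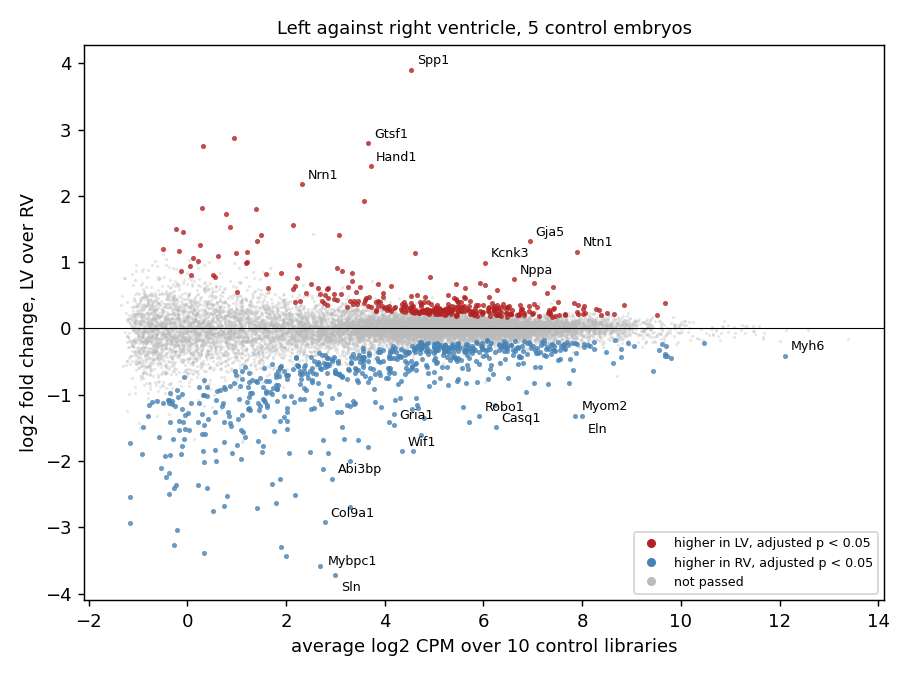
Each point is 1 of 15356 genes, with its average log2 CPM over the 10 control libraries on the x axis and its log2 fold change, LV over RV, on the y axis. Red points are the 323 genes higher in the LV and blue points the 620 genes higher in the RV at an adjusted p under 0.05, and the largest changes on either side lie among genes of low and middle level.

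A list of left ventricular and first heart field markers, chosen with earlier results of these data known, had 5 of 7 genes higher in the LV. It had 0 higher in the RV and a median log2 fold change of 0.62, against −0.000 over all genes tested. Counts of this and every later list are to be read beside the shares over all genes tested, 2.10% higher in the LV and 4.04% in the RV. In short lists 1 called member says little. Hand1, the basic helix-loop-helix factor that marks the left chamber, had 38.8, 22.4, 23.5, 13.8 and 14.1 CPM in the LV of embryos 1 to 5, against 6.18, 4.92, 4.14, 2.02 and 3.12 CPM in the RV. Every LV stood above every RV, although the level in both chambers was lowest in the E17.5 litter. The fold change was 2.44 ± 0.10 on the log2 scale (SE, n = 5 embryos; adjusted p = 3.90e-06), or 5.44-fold.

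Gja5 encodes connexin 40, the gap junction protein of trabecular and conducting myocardium. It had 222, 211, 206, 123 and 120 CPM in the LV of embryos 1 to 5, against 83.3, 68.2, 75.7, 50.1 and 69.1 CPM in the RV. The sides did not overlap, and the fold change was 1.32 ± 0.10 (adjusted p = 8.46e-05). Cited1, a transcriptional cofactor of trabecular myocardium, had 304, 202, 200, 162 and 163 CPM in the LV, against 210, 107, 135, 118 and 106 CPM in the RV. Within each embryo the LV was higher (0.62 ± 0.06), but the RV of the E13.5 embryo exceeded 4 of the 5 LV values. Nppa, the atrial natriuretic peptide gene, had 219, 121, 116, 85.8 and 76.0 CPM in the LV, against 120, 47.9, 74.9, 49.2 and 73.0 CPM in the RV. Its fold change was 0.74 ± 0.14 (adjusted p = 0.0117), with little difference in embryo 5 (0.06 on the log2 scale).

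Tbx5, the T-box factor that activates Gja5 and Nppa, had 63.2, 52.6, 45.2, 46.1 and 43.8 CPM in the LV, against 38.3, 43.6, 28.6, 30.7 and 43.6 CPM in the RV. The lowest LV value lay just above the highest RV value. The fold change of 0.44 ± 0.10 passed (adjusted p = 0.0237) and no longer did without embryo 1 (0.0777), 3 (0.0916) or 4 (0.0608), or in a fit of all 16 libraries (0.0879). The remaining members did not pass. Nppb, the other natriuretic peptide gene of the ventricles, stood at 0.38 ± 0.15 (adjusted p = 0.169), and Hcn4, the pacemaker channel gene of the early first heart field, at −0.04 ± 0.17 (adjusted p = 0.921). In edgeR Nppb passed with no count filter (0.39, adjusted p = 0.00848) and in the E14.5 embryos alone (0.67, 0.00369).

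The bases before the starts of Nppa and Gja5 are shown because both genes are textbook targets of TBX5 and NKX2-5, and those of Mybpc1 because it had one of the largest changes toward the RV. They are the 250 bases upstream of the annotated start in RefSeq on GRCm38.p6, which is not the build of the counts: Nppa at chr4:148000472-148000721 on the plus strand, Gja5 at chr3:97032152-97032401 on the plus strand and Mybpc1 at chr10:88605153-88605402 on the minus strand. Capitals mark exact matches, on either strand, to any of a few short words. The word searched for GATA factors was AGATAA, and that for T-box factors such as TBX5 was AGGTGTG. For the homeobox factor NKX2-5 the word was CAAGTG, for the muscle factor family MEF2 it was CTATTTA, and for the Hippo pathway factors TEAD it was CATTCC.
Nppa: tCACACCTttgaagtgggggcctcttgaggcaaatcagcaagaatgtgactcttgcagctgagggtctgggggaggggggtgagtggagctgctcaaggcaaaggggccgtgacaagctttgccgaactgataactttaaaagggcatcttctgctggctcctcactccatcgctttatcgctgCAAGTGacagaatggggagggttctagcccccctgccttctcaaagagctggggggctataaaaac
Gja5: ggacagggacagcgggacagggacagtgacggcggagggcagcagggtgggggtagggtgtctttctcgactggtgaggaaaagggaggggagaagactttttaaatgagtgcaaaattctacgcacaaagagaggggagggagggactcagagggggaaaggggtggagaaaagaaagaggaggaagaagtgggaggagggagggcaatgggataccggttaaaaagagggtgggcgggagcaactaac
Mybpc1: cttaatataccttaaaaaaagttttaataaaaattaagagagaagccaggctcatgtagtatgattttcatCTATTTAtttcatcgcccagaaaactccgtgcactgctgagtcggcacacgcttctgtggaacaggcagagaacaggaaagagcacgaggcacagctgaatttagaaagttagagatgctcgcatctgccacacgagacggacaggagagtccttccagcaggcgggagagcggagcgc

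In the Nppa stretch the T-box word lies from base −249 to −243, read on the minus strand, and the NKX2-5 word from −66 to −61. None of these words occurs in the Gja5 stretch, and the Mybpc1 stretch holds 1 MEF2 word from −179 to −173. Across all windows of 300 bases, from 250 before to 50 after the start, the T-box word occurred in 4.58% of 240 genes higher in the LV, in 3.60% of 444 genes higher in the RV and in 4.28% of 11180 genes tested. For the NKX2-5 word the shares were 12.9%, 11.3% and 11%, for the GATA word 7.5%, 6.76% and 6.58%, for the MEF2 word 2.08%, 1.13% and 1.85%, and for the TEAD word 12.9%, 14.6% and 12.2%. Any E-box (CANNTG), the site class of HAND proteins, occurred in 60.0%, 68.5% and 63.8%, and its CATCTG form in 10.4%, 14.6% and 11.7%. The CANNTG count includes the CATCTG form and every NKX2-5 word, since CAAGTG is itself of the form CANNTG. The 95% Wilson interval of the share with any E-box, for counting error only, was 53.7 to 66.0% in genes higher in the LV and 64.0 to 72.6% in genes higher in the RV.

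Beyond these markers, the 15 largest changes toward the LV included secreted proteins and genes of germ cell or neural repute. Spp1, which encodes the secreted glycoprotein osteopontin, had 17.4, 17.6, 157, 15.7 and 5.71 CPM in the LV of embryos 1 to 5, against 2.94, 2.20, 4.18, 0.672 and 0.865 CPM in the RV. The sides did not overlap, and embryo 3 stood far above the other LV libraries. The fold change was 3.90 ± 0.36, and 3.13 without embryo 3. Gpnmb, a membrane glycoprotein gene that macrophages also use, had 54.0 CPM in the LV of the same embryo and between 5.79 and 14.8 CPM in the other LV libraries, against 2.29 to 6.74 CPM in the RV. Its fold change of 1.92 ± 0.44 (adjusted p = 0.0301) was 1.31 without embryo 3, and did not pass without embryo 1 (adjusted p = 0.0576) or 4 (0.0795). The summed level of 12 macrophage markers was 226 CPM in the LV of embryo 3 and 134 CPM in its RV. Over the other embryos it was 123 to 154 CPM in the LV and 103 to 159 CPM in the RV, and its part in these values was not tested.

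Gtsf1, known from piRNA silencing in germ cells, had 26, 27.0, 31.8, 14.0 and 11.9 CPM in the LV, against 3.77, 3.18, 3.65, 1.78 and 3.08 CPM in the RV. Its fold change was 2.79 ± 0.15 (adjusted p = 1.49e-05). Nrn1, the neuritin gene, had 8.69, 6.45, 7.41, 10.6 and 7.34 CPM in the LV, against 1.71, 1.21, 1.91, 2.77 and 1.43 CPM in the RV, a fold change of 2.18 ± 0.12. Both genes separated the sides completely. Ntn1, the axon guidance ligand netrin 1, had 382, 339, 318, 290 and 312 CPM in the LV, against 186, 110, 162, 131 and 154 CPM in the RV, and changed by 1.16 ± 0.09. Its LV level varied little between embryos, and the lowest LV value was above the highest RV value.

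Igfbp2, which binds insulin-like growth factors, had 71.1, 37.4, 40.4, 8.62 and 14.3 CPM in the LV, against 32.1, 16.2, 18.3, 4.78 and 6.06 CPM in the RV. The chambers overlapped across litters because the level was highest at E13.5 and lowest at E17.5, yet within every embryo the LV was higher, at 1.13 ± 0.07. Kcnk3, a potassium leak channel gene, had 123, 89.2, 92.7, 68.3 and 66.6 CPM in the LV, against 47.4, 38.7, 45.5, 44.5 and 40.5 CPM in the RV (0.99 ± 0.10). The RV level stayed within a narrow range and the LV level was lowest in the E17.5 litter. The other members of the 15 were Sfrp5, a secreted Wnt inhibitor gene (1.55 ± 0.17), the transcription factor gene Tfcp2l1 (1.40 ± 0.13), the fatty acid elongase gene Elovl7 (0.96 ± 0.12), the septin gene Sept3 (0.87 ± 0.10), the exchange factor gene Arhgef4 (0.84 ± 0.11) and Bmp10. Bmp10, a growth factor of trabecular myocardium, had 49.5, 34.4, 35, 33.0 and 34.6 CPM in the LV, against 36.5, 23.2, 26.8, 9.73 and 19.3 CPM in the RV. Its fold change of 0.77 ± 0.16 (adjusted p = 0.0203) did not pass without embryo 5 (0.0526) or in the fit of all 16 libraries (0.0956).

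**Figure D2:**
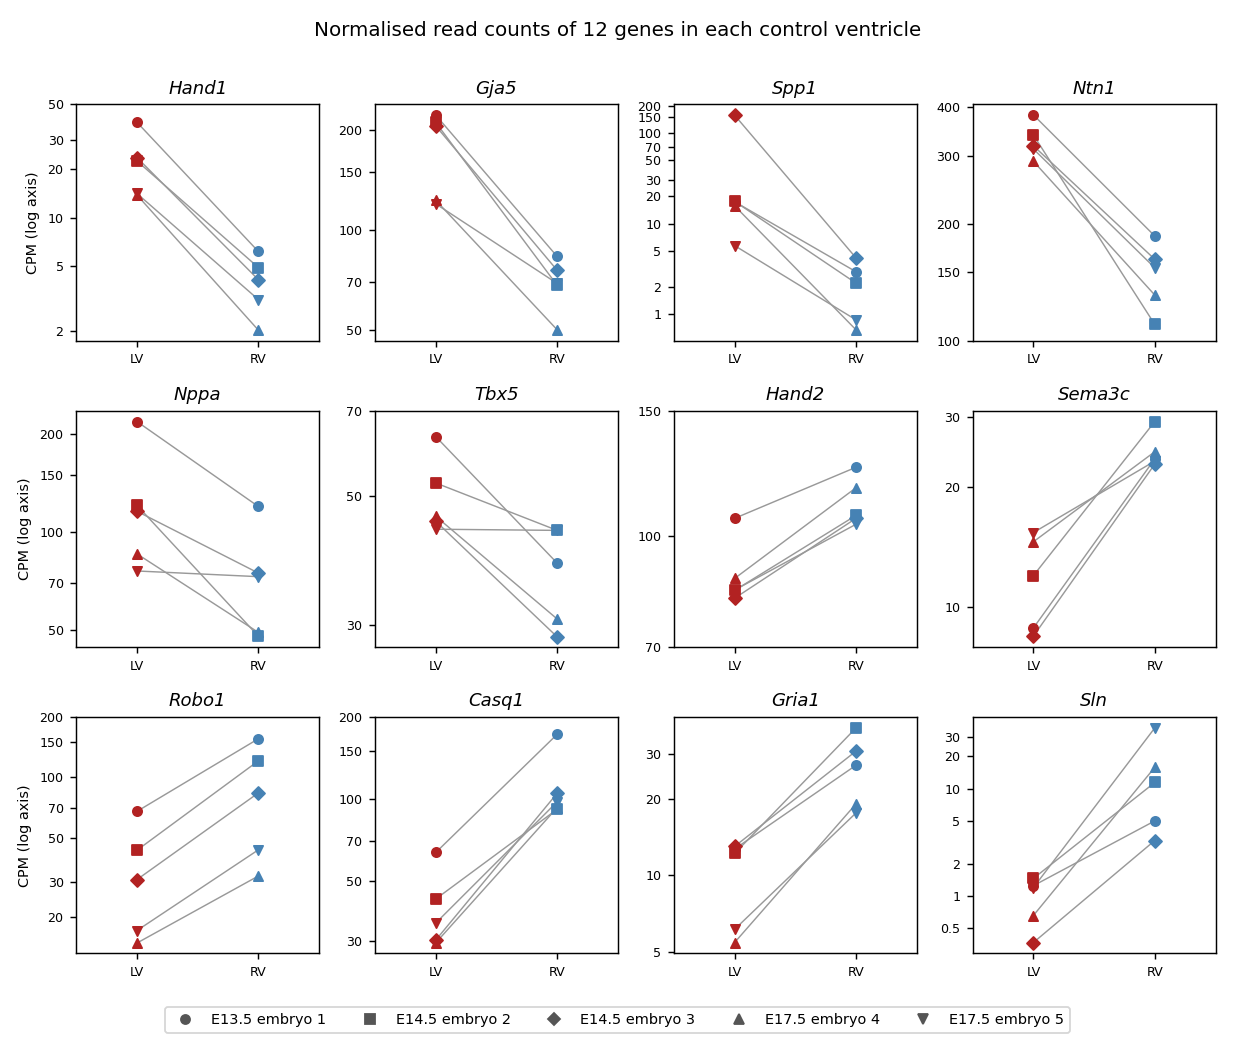
Normalised read counts (CPM, log axis) of 12 genes are drawn for the LV (left, red) and the RV (right, blue) of each control embryo, with a line joining the ventricles of 1 embryo and a marker shape per embryo and stage. Lines fall from LV to RV for Hand1, Gja5, Spp1, Ntn1, Nppa and Tbx5 and climb for Hand2, Sema3c, Robo1, Casq1, Gria1 and Sln, and in 5 of 5 embryos each gene kept its direction.

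The list of right ventricular, second heart field and outflow genes had 4 of 14 tested members higher in the RV and 1 higher in the LV, with a median log2 fold change of −0.21. Hand2, the sister factor of HAND1, had 106, 84.0, 81.9, 87.3 and 84.1 CPM in the LV, against 125, 107, 106, 117 and 104 CPM in the RV. The difference was small and even across embryos (−0.34 ± 0.05, adjusted p = 0.00228), and the E13.5 LV overlapped the RV range. Sema3c, a semaphorin that guides neural crest into the outflow tract, had 8.86, 12, 8.45, 14.6 and 15.4 CPM in the LV, against 23.6, 29.3, 22.9, 24.6 and 23.3 CPM in the RV. The sides did not overlap (−1.08 ± 0.12). Foxc2, a forkhead factor gene of outflow and vessels, stood at −0.67 ± 0.12.

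Prdm1, a transcriptional repressor gene of the second heart field, was the member higher in the LV (0.41 ± 0.10, adjusted p = 0.0417), and the list had 0 members higher in the LV when any embryo was left out. Isl1, the factor that marks second heart field progenitors, lay below the count filter. It had 0.0543, 0, 0.0337, 0 and 0 CPM in the LV, against 0.0589, 3.45, 0.568, 0.712 and 0.715 CPM in the RV and was equally low in both chambers of the E13.5 embryo.

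Of 27 core cardiac transcription factors tested, 3 were higher in the LV and 3 in the RV, with a median of 0.01. Both counts were above the shares over all genes tested, 2.10% and 4.04%. The remaining members, Nkx2-5 and Gata4 among them, did not pass. Nkx2-5 had 138 to 155 CPM in the LV and 138 to 175 CPM in the RV, a change of −0.07 ± 0.05. Gata4 had 308 to 351 CPM in the LV and 318 to 360 CPM in the RV (−0.05 ± 0.04). Tbx20 (0.02 ± 0.10), Irx4 (−0.03 ± 0.05), Hey2 (−0.01 ± 0.06) and Mef2c (0.09 ± 0.05) did not pass either, with fitted folds between 1.00 and 1.07. In edgeR fits of the E14.5 or E17.5 embryos alone, Tbx20 stood at −0.29 (adjusted p = 0.0295) and 0.15 (0.0403). Mef2c stood at 0.17 at E17.5 (0.0132). The change of Tbx20 between these litters (0.42) did not pass in the main fit or with limma-voom. It passed with DESeq2 (0.0421), with no count filter (0.0477) and without globin genes (0.0403).

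Among the factors that passed, Tbx18, a T-box gene of the epicardium and of left ventricular muscle, had 63.0, 86.3, 75, 73.4 and 76.5 CPM in the LV, against 35, 43.0, 51.2, 50.2 and 53.8 CPM in the RV. The sides did not overlap (0.69 ± 0.08). Irx3, which sets conduction identity in trabecular myocardium, was higher in the LV at 0.35 ± 0.06, and the oestrogen-related receptor gene Esrrg at 0.25 ± 0.04. Gata5, an endocardial GATA factor gene (−1.09 ± 0.17), Irx6 (−1.08 ± 0.18) and Tbx3, the repressor of the conduction system (−0.72 ± 0.17), were higher in the RV. Sap130, a subunit gene of a histone deacetylase complex that is mutated in a mouse line with HLHS, did not pass, at −0.05 ± 0.06. In the edgeR fit of the E14.5 embryos alone Sap130 stood at −0.22 (adjusted p = 0.0353). Its change from the E14.5 to the E17.5 litter (0.31) did not pass in the main fit, and passed without globin genes (0.33, adjusted p = 0.0479).

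Trabecular genes did not move as a block. Of 12 tested, 5 were higher in the LV (Gja5, Cited1, Irx3, Nppa and Bmp10) and 3 in the RV, and the median was 0.26. Gja5, Cited1, Nppa and Nppb are also on the left ventricular list, so the lists are not separate. Those higher in the RV were the contactin gene Cntn2, a Purkinje fibre marker (−2.36 ± 0.27), the copine gene Cpne5 (−0.75 ± 0.14) and the potassium channel subunit gene Kcne1 (−0.26 ± 0.05). Of 8 genes of compact myocardium 1 was higher in the RV, the receptor gene Fgfr2 (−0.75 ± 0.15), and 0 were higher in the LV.

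Contractile genes that passed all lay on the RV side. Of 39 sarcomere genes tested 11 were higher in the RV and 0 in the LV, with a median of −0.14 and 30 of 39 below 0. The RV count was 5 without embryo 3, 6 without embryo 5 and 7 without embryo 4, and 1 gene was higher in the LV without embryo 5. Acta1, the skeletal actin gene that fetal heart muscle also uses, had 63.8, 53.2, 38.3, 36.6 and 44.2 CPM in the LV, against 95.8, 114, 104, 115 and 87.3 CPM in the RV (−1.15 ± 0.12). Every RV exceeded every LV.

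Myom2, the M-band protein of fast fibres, had 22.0, 49.7, 54.2, 396 and 270 CPM in the LV, against 74.6, 171, 185, 591 and 483 CPM in the RV (−1.32 ± 0.18). Within each litter the RV was ahead, while both chambers were higher in the E17.5 litter than in the earlier ones. Xirp2, an actin-binding repeat protein gene of intercalated discs, stood at −0.81 ± 0.10 and did not pass in the fit of all 16 libraries (adjusted p = 0.0809). Mybpc1, slow skeletal myosin-binding protein C, had 0.978, 0.973, 0.842, 1.61 and 0.427 CPM in the LV, against 6.24, 20.1, 13.8, 9.21 and 9.10 CPM in the RV, and changed by −3.59 ± 0.26 (adjusted p = 7.09e-05). No LV library reached the lowest RV value.

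Myh6, the fast alpha myosin heavy chain gene, had 3459, 2018, 1684, 6784 and 5567 CPM in the LV, against 3879, 2900, 2712, 8514 and 7109 CPM in the RV. The fold change of −0.41 ± 0.08 (adjusted p = 0.0162) did not pass without embryo 3 (0.0640) or 5 (0.0618). Myh7, the slow heavy chain gene, did not pass (−0.15 ± 0.08), nor did the ventricular regulatory light chain gene Myl2 (0.05 ± 0.07).

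Calcium handling followed the same side, with 5 of 21 genes higher in the RV and 0 in the LV, and 3 without embryo 3. Casq1, the skeletal calsequestrin that stores calcium in the sarcoplasmic reticulum, had 63.6, 42.9, 30.3, 29.6 and 35 CPM in the LV, against 173, 91.7, 105, 93.0 and 97.7 CPM in the RV. The sides did not overlap (−1.49 ± 0.09, adjusted p = 1.50e-05). Sln, the sarcolipin that inhibits the calcium pump and marks atrial muscle, had 1.25, 1.46, 0.370, 0.660 and 1.20 CPM in the LV, against 5.01, 11.4, 3.29, 15.8 and 36.7 CPM in the RV (−3.72 ± 0.33). The calcium release channel gene Ryr2 (−0.42 ± 0.10), the kinase gene Camk2b (−0.53 ± 0.10) and Hrc (−0.33 ± 0.06), which encodes a calcium-binding protein of the sarcoplasmic reticulum, completed the group. Camk2b did not pass without embryo 5 (adjusted p = 0.0505) and Hrc not without embryo 3 (0.0582) or in the fit of all 16 libraries (0.0805). Ryr3, another release channel gene outside the list, was among the 15 largest changes toward the RV under the naming rule. It had 17.8, 4.05, 2.79, 0.660 and 1.09 CPM in the LV, against 23.6, 18.0, 11.1, 6.60 and 14.9 CPM in the RV (−2.01 ± 0.37, and −2.63 without embryo 1).

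Atrial muscle markers moved with these genes. Of 9 tested, 7 were higher in the RV and 0 in the LV, with a median of −0.82, and 4 of them (Sln, Mybphl, Myl7 and Myl4) are also on the sarcomere or calcium list. The summed level of the 9 was 632 to 1524 CPM in the LV and 1013 to 2010 CPM in the RV, lower in the LV in 5 of 5 embryos (exact sign-flip permutation test, two-sided p = 0.0625, the smallest that 5 embryos allow). None of the 9 was at 0 in all libraries. Myl7, the atrial regulatory light chain gene, stood at −0.82 ± 0.16 and Mybphl, a myosin-binding protein gene of atria and conduction system, at −3.29 ± 0.40. The transcription factor genes Nr2f1 (−0.23 ± 0.14) and Nr2f2 (−0.06 ± 0.06), which specify atrial identity, did not pass. The part of atrial tissue in the contractile and calcium results was not tested. Of 7 skeletal muscle markers 1 passed, the perinatal myosin gene Myh8 (−2.27 ± 0.21).

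**Figure D3:**
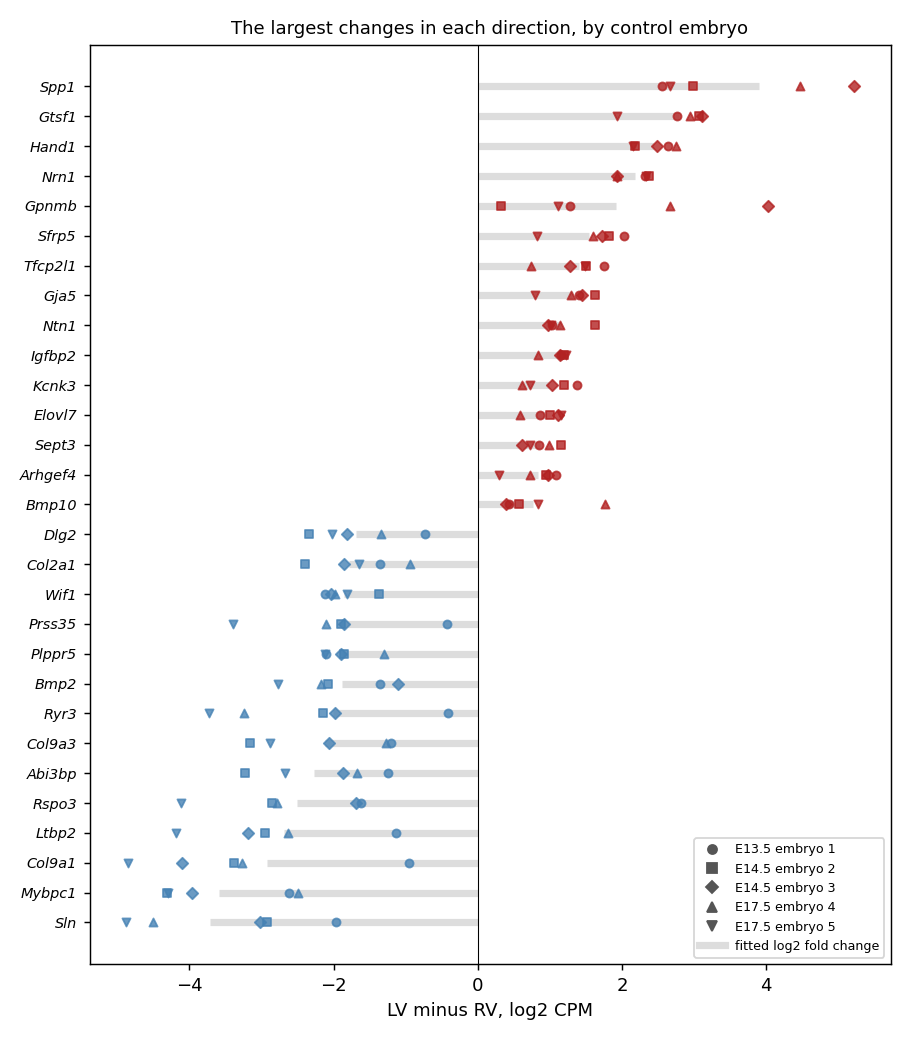
The difference LV minus RV in log2 CPM is drawn for 15 genes higher in the LV and 14 higher in the RV among the largest changes under the naming rule, with 1 marker per control embryo and a grey bar for the fitted log2 fold change. All markers of a gene lie on 1 side of 0, which the rule that chose the genes required, and the bars run from 3.90 for Spp1 to −3.72 for Sln.

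Many secreted signals and receptors were higher in the RV. Of 30 Wnt genes tested 10 were higher in the RV and 2 in the LV, with 1 in the LV without embryo 3 or 5, and the median was −0.21. Wif1, a secreted Wnt inhibitor gene, had 5.49, 12.7, 8.79, 10.3 and 7.46 CPM in the LV, against 23.9, 33.0, 35.9, 40.7 and 26.4 CPM in the RV. The sides did not overlap (−1.85 ± 0.10, adjusted p = 1.49e-05). Rspo3, an enhancer of Wnt reception, had 2.55, 1.87, 1.45, 0.701 and 0.350 CPM in the LV, against 7.95, 13.7, 4.75, 5.10 and 6.73 CPM in the RV (−2.51 ± 0.28). The secreted modulators Dkk3 (−1.42 ± 0.17) and Sfrp2 (−1.61 ± 0.26), the ligand genes Wnt9b (−2.53 ± 0.36), Wnt2 (−1.06 ± 0.20) and Wnt4 (−0.89 ± 0.20) and the nuclear effector gene Lef1 (−1.86 ± 0.41) were on the same side. Sfrp5, with 6.85, 6.12, 5.32, 5.94 and 7.69 CPM in the LV, against 1.65, 1.70, 1.58, 1.94 and 4.33 CPM in the RV, and the receptor gene Lgr4 (0.26 ± 0.05) were the members higher in the LV. Secreted Wnt modulators were thus found on either side, Sfrp5 in the LV and Wif1, Dkk3 and Sfrp2 in the RV. Dkk3 is also on the list of atrial muscle markers.

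Of 32 genes of TGF-beta and BMP signalling 9 were higher in the RV and 1, Bmp10, in the LV (median −0.20). The RV count was 5 without embryo 2 and 5 without embryo 5, when the LV count was 0. Bmp2, which induces the atrioventricular and outflow cushions, had 4.89, 3.73, 3.27, 1.65 and 1.90 CPM in the LV, against 12.5, 15.9, 7.11, 7.55 and 13.2 CPM in the RV (−1.88 ± 0.21). The ranges did not overlap. The BMP target Id2 (−0.62 ± 0.08), the BMP pseudoreceptor gene Bambi (−0.50 ± 0.08), the intracellular mediators Smad9 (−0.77 ± 0.15) and Smad6 (−0.26 ± 0.06) and the activin inhibitor gene Fst (−2.36 ± 0.38, with at most 2.16 CPM in any library) were also higher in the RV. Ltbp2, a matrix protein of the latent TGF-beta binding family, had 7.01, 4.26, 1.14, 1.28 and 0.855 CPM in the LV, against 15.4, 33.1, 10.7, 8.14 and 16.3 CPM in the RV (−2.69 ± 0.32).

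Growth factor genes of the FGF, neuregulin and IGF list had 8 of 33 higher in the RV and 2 in the LV, with 5 in the RV without embryo 3 or 5. Igfbp5, another IGF-binding protein gene, had 674, 562, 659, 399 and 412 CPM in the LV, against 1179, 945, 833, 559 and 737 CPM in the RV (−0.64 ± 0.08), so that Igfbp2 and Igfbp5 lay on opposite sides. The ligand gene Igf1 stood at −0.54 ± 0.08, and the receptor genes Fgfr3 and Fgfr2 at −0.76 ± 0.12 and −0.75 ± 0.15. Fgf13, which encodes an intracellular channel partner, was the other member higher in the LV (0.33 ± 0.06).

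The retinoic acid list had 3 of 15 higher in the RV and 0 in the LV, with 1 in the RV without embryo 2, 4 or 5 and 1 in the LV without embryo 1. Crabp1, the retinoic acid binding protein gene, had at most 0.489 CPM in any LV and 0.356 to 3.63 CPM in the RV (−3.03 ± 0.41). The degrading enzymes Cyp26b1 (−0.84 ± 0.19, adjusted p = 0.0324) and Cyp26a1 (−1.93 ± 0.46, adjusted p = 0.0342) did not pass without embryo 2 (0.104 and 0.132), 4 (0.0598 and 0.0708) or 5 (0.0875 and 0.101), and Cyp26a1 not in the fit of all 16 libraries (0.0563). Of 15 Notch genes 1 passed, the ligand gene Dll1 (−0.67 ± 0.13), which is near the 6.14% called over all genes tested. Without embryo 4 there was also 1 Notch gene higher in the LV.

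Axon guidance genes were unevenly divided, with 8 of 41 higher in the RV and 1, Ntn1, in the LV. Robo1, the receptor of Slit ligands, had 67.7, 43.3, 30.9, 14.9 and 17.2 CPM in the LV, against 156, 121, 83.7, 32.2 and 43.5 CPM in the RV. The level in both chambers was lowest in the E17.5 litter, so the ranges overlapped, but the difference within embryos was even (−1.32 ± 0.06, adjusted p = 5.67e-06). Unc5c, a receptor of netrin 1, was higher in the RV at −1.22 ± 0.20, on the side opposite to its ligand gene. The Eph receptor genes Epha7 (−0.48 ± 0.08) and Ephb3 (−0.37 ± 0.07) were also higher in the RV.

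Genes of glutamate reception and synaptic adhesion had 7 of 21 higher in the RV and 2 (Nrn1 and Lingo1) in the LV, with 1 in the LV without embryo 2, and a median of −0.22. Gria1, an AMPA receptor subunit gene, had 12.7, 12.2, 13, 5.45 and 6.14 CPM in the LV, against 27.1, 38.0, 30.8, 19.1 and 17.6 CPM in the RV (−1.45 ± 0.10). Gria3, another subunit gene, had 15.4, 15.8, 14.2, 11.4 and 12.3 CPM in the LV, against 27.2, 27.5, 24.6, 19.4 and 24.8 CPM in the RV (−0.84 ± 0.06). Neither gene overlapped between the sides. Gria2 (−1.37 ± 0.23) and the adhesion gene Slitrk5 (−1.19 ± 0.14) followed at lower levels. Plppr5, a brain-type membrane phosphatase relative, had 1.96 to 3.08 CPM in the LV and 6.25 to 11.2 CPM in the RV (−1.87 ± 0.13), and the scaffold gene Dlg2 had 2.06 to 4.67 CPM in the LV and 6.21 to 17.9 CPM in the RV (−1.69 ± 0.20). The 13 listed markers of neural crest, nerve and glia in the count table had a summed level of 26.8 to 32.8 CPM in the LV and 28.2 to 35.9 CPM in the RV. Of the 8 tested 1, the glial and crest factor gene Sox10, was higher in the RV (−2.23 ± 0.39), and 0 without embryo 4. The part of nerve tissue in these values was not tested.

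Hormone and transmitter receptor genes, with the monoamine oxidases, had 6 of 24 higher in the RV and 1 in the LV, with 0 in the LV without embryo 2 or 3. Maob, monoamine oxidase B, differed evenly in all embryos, with 8.04, 9.12, 8.99, 9.32 and 8.35 CPM in the LV, against 15.4, 21.1, 19.2, 19.4 and 19.6 CPM in the RV (−1.11 ± 0.07). Maoa stood at −0.52 ± 0.06. The relaxin receptor gene Rxfp1 had 9.02, 8.07, 5.39, 16.5 and 15.6 CPM in the LV, against 22.2, 22.6, 20.6, 26.3 and 35.2 CPM in the RV (−1.29 ± 0.14), with no overlap. Gcgr, the glucagon receptor gene, had at most 0.543 CPM in any LV and 0.406 to 3.75 CPM in the RV (−3.38 ± 0.30). The endothelin receptor genes were on opposite sides, Ednra at 0.22 ± 0.04 and Ednrb at −0.42 ± 0.10.

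Ion channels and conduction genes had 3 of 26 higher in the LV and 5 in the RV, and 3 in the RV without embryo 5. Kcnd2, a transient outward potassium channel gene, was higher in the LV with 9.35, 11.7, 12.4, 11.3 and 12.4 CPM, against 7.36, 7.65, 7.80, 6.64 and 7.52 CPM in the RV (0.63 ± 0.09). Kcnj12, an inward rectifier gene, had 6.36, 9.33, 7.74, 19.4 and 21.1 CPM in the LV, against 14.0, 18.6, 15.8, 26.5 and 26.9 CPM in the RV (−0.75 ± 0.12). The T-type calcium channel genes Cacna1g (−0.81 ± 0.14) and Cacna1h (−0.43 ± 0.08) and the L-type gene Cacna1d (−0.69 ± 0.15) were higher in the RV.

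Cell cycle genes leaned toward the LV by small steps. Of 38 tested 12 were higher in the LV and 1 in the RV, the median was 0.19 and 35 of 38 were above 0. The LV count was 5 without embryo 1, 2 or 5, and 2 without embryo 3, and the number above 0 stayed at 35 or 36 in each of these fits and without embryo 4. Ccna2, the S and G2 phase cyclin gene, had 191, 222, 210, 158 and 177 CPM in the LV, against 157, 156, 173, 141 and 140 CPM in the RV (0.32 ± 0.05). Kif11, the spindle motor gene, had 188, 191, 185, 144 and 173 CPM in the LV, against 155, 147, 152, 128 and 142 CPM in the RV (0.28 ± 0.05). Both genes overlapped between litters and were higher in the LV of every embryo. Cdkn1a, the p21 inhibitor of cyclin-dependent kinases, was the member on the RV side (−0.32 ± 0.05).

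Few genes of energy metabolism passed. Of 62 oxidative phosphorylation genes 0 were called by edgeR in either direction, with a median of 0.02 and single genes between −0.28 and 0.13. At an unadjusted p under 0.05 there were 2, and DESeq2 called 1 and limma-voom 0. Of 31 genes of fatty acid oxidation edgeR called 0, with a median of −0.09 and 27 below 0. There were 5 at an unadjusted p under 0.05, and DESeq2 called 2, both higher in the RV, and limma-voom 0. Without embryo 4 or 5 edgeR called 1 of them higher in the RV. Of 27 genes of glycolysis and glucose transport 1 was higher in the LV, the lactate and pyruvate carrier gene Slc16a1 (0.29 ± 0.07), and 1 in the RV, the glucose carrier gene Slc2a3 (−0.30 ± 0.07). The LV count was 0 without embryo 1, 2, 3 or 5 and the RV count 0 without embryo 3, 4 or 5, and both shares lay near those over all genes.

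**Figure D4:**
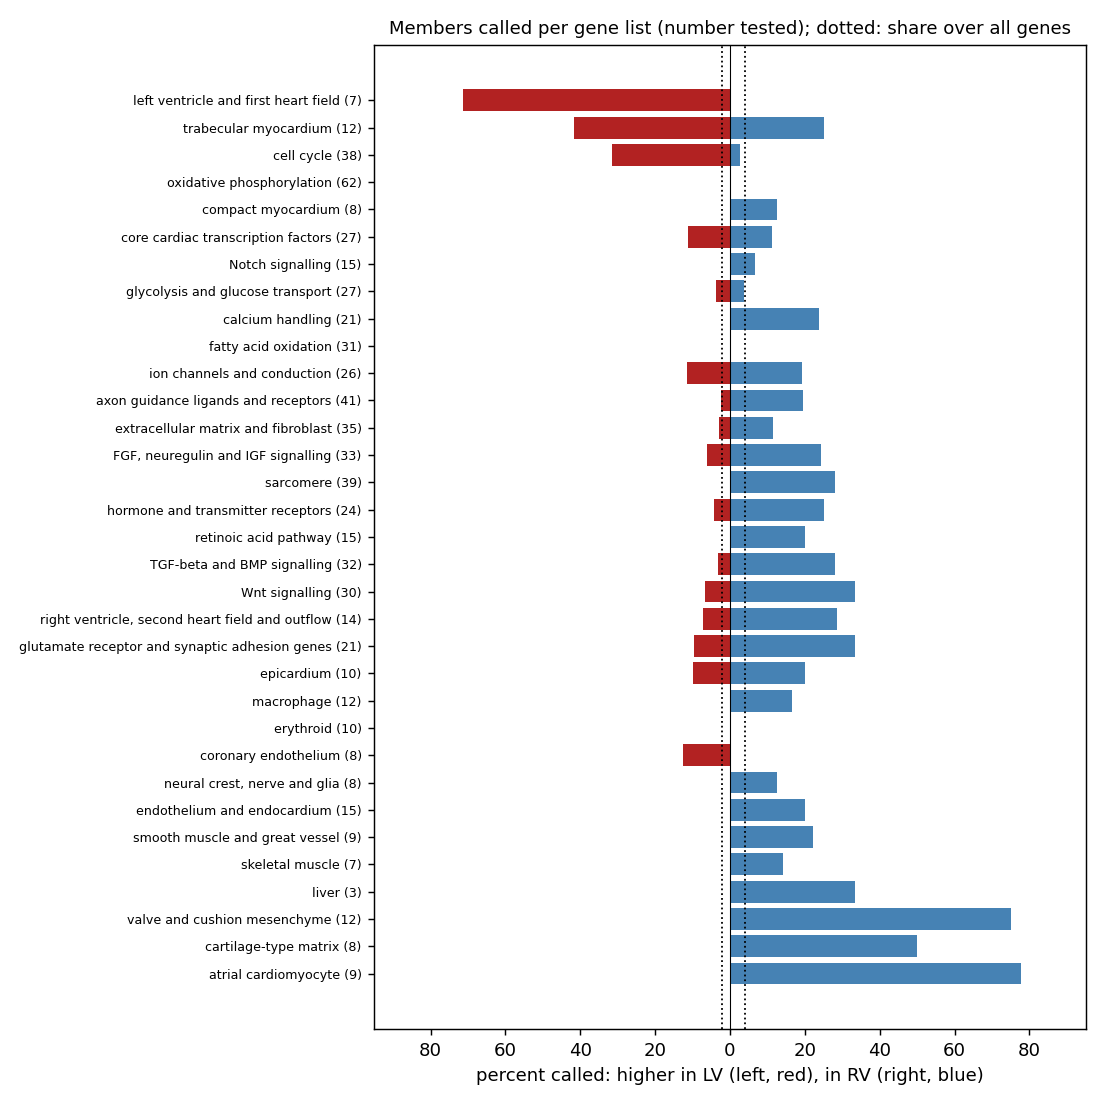
For 33 gene lists with at least 3 tested members (number in brackets), bars give the percent of members called higher in the LV (left, red) or in the RV (right, blue), and dotted lines mark the shares over all genes, 2.10% and 4.04%. The left ventricular and first heart field list reaches farthest to the left with 5 of 7, and the atrial and valve lists reach farthest to the right with 7 of 9 and 9 of 12.

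Matrix and mesenchyme genes of the valve and cushion type were higher in the RV for 9 of 12 tested members, with 0 higher in the LV and a median of −0.54. Cthrc1, a secreted collagen-associated protein, had 7.5, 6.08, 3.16, 2.60 and 2.60 CPM in the LV, against 12.7, 22.0, 9.06, 8.97 and 14.9 CPM in the RV (−1.67 ± 0.19). Hapln1, which links hyaluronan to versican, had 12.7, 7.06, 4.51, 2.19 and 2.02 CPM in the LV, against 18.7, 30.5, 12.4, 8.74 and 12.7 CPM in the RV (−1.68 ± 0.24). The versican gene Vcan itself stood at −0.53 ± 0.09, and the mesenchymal factor gene Prrx1 at −0.66 ± 0.07. The summed level of the 12 markers was 980 to 1306 CPM in the LV and 1300 to 1783 CPM in the RV, lower in the LV in 5 of 5 embryos (exact sign-flip test, two-sided p = 0.0625, the smallest possible).

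Of 8 cartilage-type matrix genes, which developing valves also use, 4 were higher in the RV and 0 in the LV. Col9a1 had 6.36, 2.51, 0.438, 0.413 and 0.233 CPM in the LV, against 12.4, 26.7, 8.16, 4.35 and 7.86 CPM in the RV (−2.92 ± 0.42, and −3.82 without embryo 1). Col2a1 had 21.6, 5.43, 4.07, 0.454 and 0.427 CPM in the LV, against 55.7, 28.6, 14.8, 0.909 and 1.43 CPM in the RV (−1.79 ± 0.16). Its level in both chambers was far lower in the E17.5 litter than at E13.5, and the RV was ahead in each embryo. Col9a3 stood at −2.12 ± 0.27. The summed level of the 9 cartilage-type markers in the count table was 30.5 to 90.0 CPM in the LV and 46.5 to 143 CPM in the RV, lower in the LV in 5 of 5 embryos.

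In the wider matrix and fibroblast list 4 of 35 genes were higher in the RV and 1, Spp1, in the LV. The RV count was 9 without embryo 1 and 2 without embryo 5, and the LV count was 2 without embryo 1 or 2. Eln, the elastin gene of great vessels and semilunar valves, had 101, 95.7, 91.4, 246 and 164 CPM in the LV, against 127, 570, 221, 418 and 529 CPM in the RV (−1.33 ± 0.25). Abi3bp, a matrix protein gene, had 1.58, 2.55, 2.73, 2.68 and 2.41 CPM in the LV, against 3.77, 24.4, 10.1, 8.62 and 15.5 CPM in the RV (−2.27 ± 0.23). Both chambers were closest in embryo 1 for both genes. Prss35, a protease-like secreted protein gene (−1.85 ± 0.30), was also among the 15 largest changes toward the RV under the naming rule.

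Of 9 markers of smooth muscle and great vessels 2 were higher in the RV (Eln and Tagln), with a summed level of 1620 to 1858 CPM in the LV and 1785 to 2208 CPM in the RV. The RV count was 1 without embryo 2, 3, 4 or 5, and 2 members were higher in the LV without embryo 2. Of 15 endothelial and endocardial markers 3 were higher in the RV: Plvap (−0.32 ± 0.05), Nfatc1 (−0.43 ± 0.09) and Tie1 (−0.21 ± 0.05, adjusted p = 0.0468). Tie1 did not pass when any embryo was left out (0.0583 to 0.155), and Nfatc1 not without embryo 2 (0.0556) or 5 (0.0861), and in the fit of all 16 libraries Plvap (0.139) and Tie1 (0.250) did not pass. Of 8 coronary endothelial markers 1 was higher in the LV, the fatty acid binding protein gene Fabp4 (0.38 ± 0.08), and 0 without embryo 1 or 3. The part of valve, cushion and vessel tissue in the matrix and signalling results was not tested.

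Of 10 epicardial markers tested 8 were above 0, with a median of 0.32. The median was 0.09 without embryo 1 and −0.00 in the E17.5 embryos alone. Their summed level was 244 to 298 CPM in the LV and 131 to 272 CPM in the RV, higher in the LV in 5 of 5 embryos (exact sign-flip test, two-sided p = 0.0625). Of the 10 tested, Tbx18 was higher in the LV, whereas the keratin genes Krt8 (−0.69 ± 0.12) and Krt18 (−0.60 ± 0.08) were higher in the RV. In the fit of all 16 libraries Krt8 (adjusted p = 0.0509) and Krt18 (0.0949) did not pass, and without embryo 1 the LV count was 2. The epicardial factor gene Wt1 (0.31 ± 0.09, adjusted p = 0.0745) and the mesothelial gene Upk3b (0.22 ± 0.22) did not pass. Of 12 macrophage markers 2 were higher in the RV, Mrc1 (−0.27 ± 0.06) and Lyve1 (−0.31 ± 0.08), while 10 of the 12 were above 0 and the median was 0.25. The RV count was 0 without embryo 2, 3 or 5, 1 without embryo 1 or 4, and 0 with DESeq2 or in the fit of all 16 libraries. The median was 0.01 without embryo 3 and −0.08 in the E17.5 embryos alone. Of 10 erythroid markers edgeR, DESeq2 and limma-voom each called 0, and 2 had an unadjusted p under 0.05. Without embryo 1 edgeR called 1 higher in the LV. Of 3 tested liver markers 1, the plasma protein gene Ahsg, was higher in the RV (−1.39 ± 0.13), and the 9 liver markers in the count table summed to at most 19.0 CPM. Lung markers summed to at most 1.35 CPM and thymus markers to at most 3.71 CPM, with Scgb1a1 at 0 in all libraries.

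The difference between the chambers was compared between the E14.5 and the E17.5 litters, with 2 control embryos each. Of 15356 genes 587 passed (3.82%), 392 with a larger LV minus RV value at E17.5 and 195 with a smaller one. These counts were unstable: without embryo 4 they were 15 and 9, without embryo 3 they were 923 and 1279, and with DESeq2 they were 139 and 9. The share with a larger value was 66.8%, and it was 77.2% with scaling by relative log expression and 74.1% without globin genes. Of the 943 genes that differed between the chambers 53 passed. Among those higher in the LV 14 had a smaller and 1 a larger LV minus RV value at E17.5, and among those higher in the RV 28 were less and 10 were more negative.

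Myom2 was nearer between the chambers in the older litter, at −1.78 and −1.77 in the E14.5 embryos and −0.58 and −0.84 in the E17.5 embryos (E17.5 minus E14.5, 1.07, adjusted p = 0.00522). Kcnj12 moved the same way, with −0.99 and −1.03 at E14.5 and −0.45 and −0.35 at E17.5. Sema3c had −1.28 and −1.44 at E14.5 and −0.75 and −0.60 at E17.5. The opposite held for Sln, with −2.92 and −3.02 at E14.5 and −4.50 and −4.88 at E17.5, and for Mybphl, with −2.71 and −2.97 at E14.5 and −4.87 and −4.80 at E17.5. Nppb was higher in the LV of both E14.5 embryos (1.02 and 0.36) and nearly level at E17.5 (−0.14 and −0.05). Of these, Sln did not pass without embryo 2 (0.0693), 4 (0.0601) or 5 (0.0684), and Nppb not without embryo 4 (0.213) or with DESeq2 (0.337). The changes of Myom2, Kcnj12, Sema3c and Mybphl were not followed through these alternatives, so how far they hold is not known. Hand1 (0.10, adjusted p = 0.825), Hand2 (0.00) and Nrn1 (−0.04) did not pass, and their differences at E14.5 averaged 2.33, −0.36 and 2.15.

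The chamber genes of control hearts were then read in the 3 HLHS embryos, which share litters but no libraries with the controls. The direction of the control hearts was found in 3 of 3 HLHS embryos for 646 of the 943 genes (68.5%), 217 of those higher in the LV (67.2%) and 429 of those higher in the RV (69.2%). Over all genes tested this was so for 4342 (28.3%). The opposite direction in 3 of 3 HLHS embryos was found for 17 of the 943. In the HLHS hearts alone 546 of 15319 genes passed (3.56%), 131 higher in the LV and 415 in the RV. Without each HLHS embryo in turn these counts were 55 to 471 and 215 to 646. Of the 936 control chamber genes tested there, 250 passed in the same direction and 0 in the opposite one.

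Hand1 had 37.7, 19.5 and 10.1 CPM in the LV of the HLHS embryos, against 6.96, 4.18 and 2.15 CPM in their RV, a fold change of 2.30 ± 0.13 in HLHS hearts and 2.44 ± 0.10 in control hearts. Gja5 had 268, 152 and 104 CPM in the LV of HLHS hearts, against 58.9, 64.5 and 51.2 CPM in the RV. Ntn1 changed by 1.20 ± 0.09 in HLHS and 1.16 ± 0.09 in control hearts, Wif1 by −1.87 ± 0.29 and −1.85 ± 0.10, and Gria1 by −1.35 ± 0.19 and −1.45 ± 0.10. Each of these genes was on the same side in the malformed hearts.

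A direct test of the difference between HLHS and control hearts in LV minus RV called 3 of 16209 genes (0.0185%), and 1397 at an unadjusted p under 0.05. With DESeq2 80 genes had a larger and 53 a smaller LV minus RV value in HLHS hearts. Tppp, a microtubule-binding protein gene, had 10, 7.27 and 14.2 CPM in the LV of HLHS hearts and 21.1, 20.8 and 34.3 CPM in their RV. In control hearts it had 22.2, 19.7, 20.7, 29.5 and 26.6 CPM in the LV and 26.2, 23.7, 26.8, 34.6 and 35.1 CPM in the RV. The LV minus RV value differed by −0.98 (adjusted p = 0.0235). Of the 943 genes Tppp passed this test in edgeR, and its chamber difference in control hearts (−0.30 ± 0.05) did not pass without embryo 3 (0.0556) or 5 (0.0700).

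Tmem26, a membrane protein gene, differed by −2.22 (adjusted p = 0.0382) and P4ha3, a collagen prolyl hydroxylase subunit gene, by −0.85 (adjusted p = 0.0387), and neither passed between the chambers of control hearts (−0.08 ± 0.17 and −0.09 ± 0.07). Without control embryo 3, 4 or 5, Tppp, Tmem26 and P4ha3 did not pass (adjusted p from 0.0924 to 0.136), and P4ha3 also did not without control embryo 1 (0.0767). Without HLHS embryo 2, Tmem26 (0.120) and P4ha3 (0.0689) did not pass. The mitochondrial creatine kinase gene Ckmt2 followed with −0.54 ± 0.17 in HLHS and 0.58 ± 0.07 in control hearts (difference adjusted p = 0.0573), and the kinase gene Pak6 with 0.67 ± 0.08 and 0.07 ± 0.05 (0.0573). The difference passed with DESeq2 and with no count filter for Ckmt2 (1.04e-07 and 8.73e-05) and for Pak6 (5.31e-04 and 0.00313), and with limma-voom for Ckmt2 (0.0295). Ckmt2 is among the 943 chamber genes. Some chamber genes had the opposite sign in HLHS hearts without passing the test of the difference. Bmp10 stood at −1.22 ± 0.32 in HLHS and 0.77 ± 0.16 in control hearts (difference adjusted p = 0.119), Xirp2 at 1.24 ± 0.36 and −0.81 ± 0.10 (0.101), Krt18 at 0.59 ± 0.27 and −0.60 ± 0.08 (0.176), and Krt8 at 0.54 ± 0.25 and −0.69 ± 0.12 (0.162). Acta1 stood at 0.01 ± 0.43 and −1.15 ± 0.12 (0.493), with 55.9, 157 and 25.3 CPM in the LV of HLHS hearts against 63.9, 55.9 and 63.0 CPM in the RV.

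**Figure D5:**
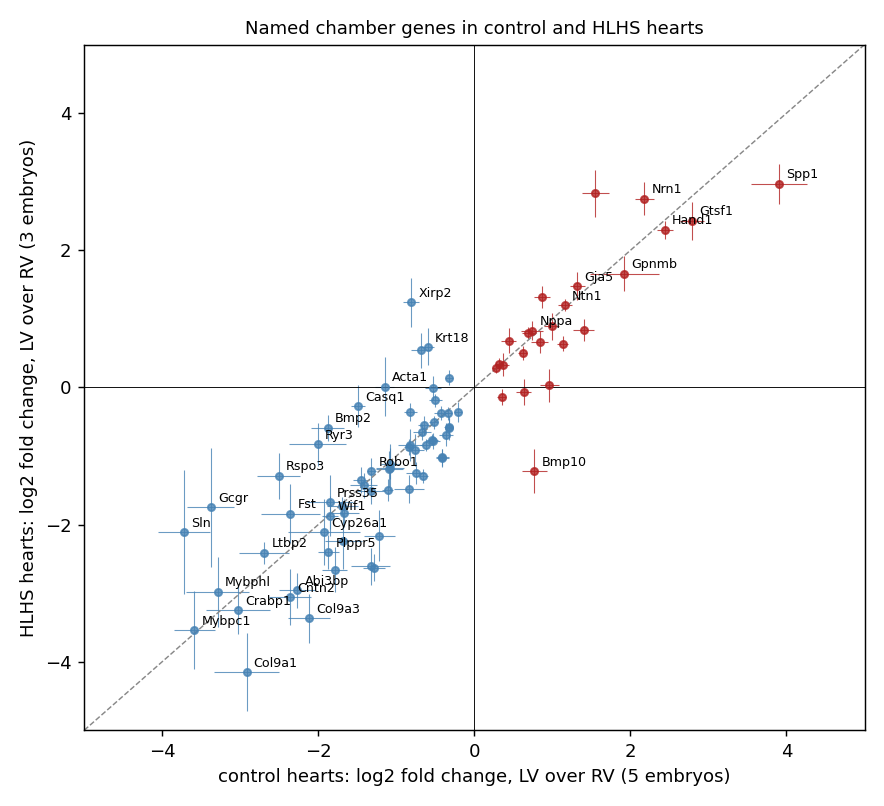
The log2 fold change, LV over RV, of 86 named chamber genes is drawn for HLHS hearts (y axis, 3 embryos) against control hearts (x axis, 5 embryos), with SE as error bars and the dashed line where both are equal. On the same side of 0 in both were 78 of the 86 genes, and Bmp10 and Xirp2 are among those that crossed it.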

How the data were processed

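Polyadenylated RNA of single ventricles was sequenced from TruSeq RNA v2 libraries, per the labels. The authors deposited 1 table of whole-number counts per gene; the submitters' processing notes list HTSeq 0.5.4p5, TopHat2 2.0.9, edgeR 3.4.2 and Picard, and the build mm9. Which annotation and strand setting were used is not given in the sources used here. Genes that overlap, run antisense or are near copies may therefore share reads. The 10 control columns and, for comparison, 6 HLHS columns were matched to samples by name, with 0 unused columns. Of 37991 gene IDs 32919 (86.6%) had a symbol in the name table, and IDs without one held 0.494% of control counts.

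Genes were kept by edgeR's filterByExpr (minimum count 10, minimum total count 15). Counts were scaled by the trimmed mean of M values and tested in edgeR 4.0.16 (R 4.3.3) with glmQLFit and glmQLFTest, side as the tested term and the embryo as a block, with Benjamini-Hochberg adjustment over all genes tested and a threshold of 0.05. The SE is the log2 fold change divided by the root of the F value, and differences by embryo use log2 CPM with a prior count of 1. The change with stage and the difference between HLHS and control hearts were tested as interactions with side in the same kind of fit. Scripts were tested on simulated counts in which 200 genes were changed 2-fold. Unchanged genes made up 10.7% of the calls for control LV versus RV and 14.5% for the change with stage. They made up 8.25% for HLHS minus control and 9.95% for LV versus RV in HLHS hearts. All these shares were above the 0.05 at which the threshold was set. The labels pair the ventricles by embryo: deviations from the group mean correlated at 0.513 to 0.764 between ventricles of 1 embryo and at −0.621 to 0.564 between embryos. Labels describe the embryos as separate animals. Over 20 pairs of libraries within a group, chi-square per degree of freedom was at least 7.51, so no pair agreed within sampling noise.

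Gene lists (21 of pathways, 14 of cell type markers), the members and the rule for named genes were chosen with earlier results of these data known. The rule named the 15 largest changes in each direction among called genes whose log2 CPM averaged at least 2, with the same direction in 5 of 5 embryos and a proper symbol. It added up to 4 members with the smallest p of each list with at least 3 members past the threshold, 28 genes whatever their values, and 5 genes of each interaction test. Other list members that passed are given as list counts with examples, and 3 genes that the rule or lists hold are not reported here. Sums of marker CPM were compared by an exact sign-flip permutation test over 5 embryos. Promoter windows of 684 called genes came from RefSeq (GRCm38.p6). Alternatives were relative log expression scaling, DESeq2 1.42.0, limma 3.58.1 (voom), other filters, globin genes left out, other blocks and stages, and leaving out each embryo. Depth limits low genes: below about 1 CPM a library holds few reads, and folds there are imprecise.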

Additional observations from a re-analysis of the deposited data

Results flagged for a closer look

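A sample stood apart from the other 4 embryos in the LV minus RV difference (log2 CPM) of 5 genes and 1 marker list. Chance gives this in about 1 in 20 groups. The search covered every named gene tested and 14 marker lists, so several such cases arise by chance. Gtsf1 was 1.93 in embryo 5 and 2.77 to 3.11 in the others. Ntn1 was 1.63 in embryo 2 and 0.97 to 1.14 in the others. Igfbp2 was 0.84 in embryo 4 and 1.14 to 1.23 in the others. Gria3 was −1.01 in embryo 5 and −0.82 to −0.77 in the others. In each of these genes the separate embryo kept the direction of the rest. Xist was −4.78 in embryo 4, with 1.24 CPM in the LV and 35.1 CPM in the RV, and −0.22 to 1.25 in the others. The summed epicardial markers were 0.90 in embryo 1, with 244 CPM in the LV and 131 CPM in the RV, and the mean over 5 embryos was 0.34.

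The difference between the chambers changed from the E14.5 to the E17.5 litter for 587 genes in edgeR's quasi-likelihood test. Among the genes named, the change in LV minus RV (E17.5 minus E14.5, log2) was 1.07 for Myom2, 0.61 for Kcnj12 and 0.68 for Sema3c, where the excess in the RV was smaller in the older litter. It was −1.79 for Sln, −1.53 for Ryr3, −2.09 for Mybphl and −0.44 for Bambi, where the excess in the RV was larger. Sln did not pass without embryo 2 (0.0693), 4 (0.0601) or 5 (0.0684), and Ryr3 not without embryo 4 (0.0584) or 5 (0.0816) or with the day as a number (0.107). The changes of Myom2, Kcnj12, Sema3c, Mybphl and Bambi were not followed through these alternatives. The change was −0.45 for Kcnk3 and −0.77 for Nppb, which were nearer between the chambers at E17.5. Kcnk3 did not pass without embryo 4 (0.246) or 5 (0.0513), with DESeq2 (0.257) or with the day as a number (0.190), and Nppb not without embryo 4 (0.213), with DESeq2 (0.337) or with the day as a number (0.334). The largest absolute changes among genes of middle level included Psd, an exchange factor gene (1.36), the gene model Gm5422 (1.29) and the ribosomal pseudogene Rps16-ps2 (−1.23), and the last of these shares sequence with its parent gene, so its counts are uncertain. Without embryo 4 Psd (0.0707), Gm5422 (0.106) and Rps16-ps2 (0.218) did not pass, and with the day as a number they were 0.26, 0.30 and −0.34 (adjusted p from 0.405 to 0.559 in edgeR).

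The LV minus RV value differed between HLHS and control hearts for 3 genes, by −0.98 for Tppp, −2.22 for Tmem26 and −0.85 for P4ha3.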

How the results depend on the processing

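The direction of each named gene that passed was the same under every alternative run, and none reversed. For the change with stage and for HLHS hearts only some of the named genes were followed. The count of genes higher in the LV and in the RV was 632 and 938 with no count filter, 1356 and 1744 in the E14.5 embryos alone, and 711 in the LV in the E17.5 embryos alone, where 2 embryos leave little spread to judge by. It was 186 in the LV with all 16 libraries in one fit, where 12 named genes no longer passed. The ventricles are paired by embryo, and with no replicate block 9 and 23 genes passed, while with a stage term in place of the block 294 and 584 did. Leaving out each embryo gave 108 to 318 genes higher in the LV and 351 to 537 in the RV.

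For the change from E14.5 to E17.5, genes with a larger and a smaller LV minus RV value numbered 139 and 9 with DESeq2, 0 and 0 with no replicate block, and 4 and 5 with the day as a number. Without globin genes 620 were larger. Leaving out each embryo gave 15 to 923 and 9 to 1279. For HLHS minus control the counts were 80 and 53 with DESeq2, 107 and 110 with no count filter, 3 and 6 with no replicate block, and 5 smaller with limma-voom. Leaving out each embryo gave 0 to 107 larger and 0 to 28 smaller. In HLHS hearts 207 genes were higher in the LV with DESeq2, 454 in the LV and 855 in the RV with no count filter, 0 and 4 with no replicate block, and 55 to 471 and 215 to 646 without each embryo. The cause of these moves was not tested.

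Medians of lists that moved by more than the spread between embryos were, with no count filter, −0.63 for neural crest, 0.37 for liver and −0.59 for skeletal muscle markers; with at least 1 CPM in 3 libraries, −1.20 for cartilage-type and −1.39 for liver markers; and in the fit of all libraries 0.05 for thymus markers, where 2 were tested in place of 1. In the E14.5 embryos alone they were −0.22 for ion channels, −0.28 for axon guidance, −0.45 for glutamate and synaptic genes, −0.58 for atrial, −0.23 for endothelial, −1.68 for cartilage-type and −0.44 for skeletal muscle markers. In the E17.5 embryos alone they were 0.10 for core factors, 0.40 for trabecular genes, 0.05 for ion channels, −0.00 for endothelial, 0.29 for liver and 0.23 for thymus markers. Without each embryo the atrial median was −0.91 to −0.59, that of ion channels −0.19 to −0.06, of epicardium 0.09 to 0.41, of macrophages 0.01 to 0.42 and of the wider matrix list −0.25 to 0.01. Within that spread, medians in the E14.5 embryos alone were −0.41 for Wnt and −0.32 for matrix genes, and in the E17.5 embryos alone −0.50 for right ventricular genes, −0.00 for epicardium and −0.08 for macrophages. With bases before the start alone, an E-box occurred in 50.8% of genes higher in the LV and 61.5% of those higher in the RV.

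Low counts limit precision: genes under 1 CPM, such as Isl1 and Crabp1, rest on few reads.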

Other observations

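Other genes were chosen after their values were seen, as the 5 smallest adjusted p on each side among genes on no list whose log2 CPM averaged at least 2. That choice favours genes whose difference is even across embryos. Higher in the LV was Fig4, a phosphoinositide phosphatase gene, with 161 ± 18.1 CPM in the LV and 100 ± 14 CPM in the RV (SD, n = 5 each; 0.68 ± 0.06 in edgeR's fit). The cyclic nucleotide phosphodiesterase gene Pde3b (0.50 ± 0.05), the innate sensor gene Nlrp10 (0.61 ± 0.06), the mannosyltransferase gene Tmtc1 (0.48 ± 0.05) and the melanocortin receptor accessory gene Mrap (0.51 ± 0.06) were on the same side. Higher in the RV were Pdlim3, which encodes a Z-disc protein (−0.96 ± 0.06), Meis2, a homeobox factor gene of outflow and neural crest (−0.76 ± 0.05), the complement protease gene Masp1 (−1.05 ± 0.08), Sel1l3 (−1.14 ± 0.10) and Ogdhl, a relative of oxoglutarate dehydrogenase (−0.86 ± 0.07). All 10 had the same direction in 5 of 5 control embryos, as that choice favours, and in 3 of 3 HLHS embryos. The HLHS agreement was also found for 68.5% of all called genes.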
